A study of Homo sapiens with 16 samples.

Results

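The enzymes and the structural protein that mark the brush border of the small intestine were followed in Caco-2 cells, a human colon adenocarcinoma line. The members were all non-control probes whose gene name on the array was SI, LCT, MGAM, ALPI, ANPEP, DPP4, MME, ENPEP or VIL1. These were 11 probes of 9 genes, of 40982 probes tested on the array. MME and VIL1 had 2 probes each and every other gene had 1. By its accession, each of the 11 probes matched a current RefSeq gene of the same symbol. The rule uses gene names and no measured value, but the genes were chosen with earlier results of these data known.

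All cultures were undifferentiated cells on the third day after seeding, in medium with 1% serum, and they differed only in what was added for 6 h. MED-CTL cells stayed in that medium. The p31-43 cells received 150 µg/ml of a synthetic gliadin peptide that T cells of coeliac patients do not recognise but that is held to act on epithelial cells. PT-G cells received wheat gliadin digested with pepsin and trypsin, and PT cells a blank digest that held the enzymes and no gliadin, in both cases after the enzymes were heat-inactivated. The doses of PT-G and PT are not given in the sources used here. There were 4 arrays per condition, from 4 independent experiments on cells that differed in passage, all of the same line, and the cells were harvested with trypsin. Arrays whose names carry the same day are called a run here. Each run is taken as 1 experiment, which the labels do not state. Runs 1 and 2 form a first pair and runs 3 and 4 a later pair, and every run holds 1 array of every condition. MED-CTL replicate 2 belongs to run 1 and MED-CTL replicate 1 to run 2. Every other array has the same replicate and run number.

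The brush border is the carpet of microvilli on the apical face of an enterocyte. Hydrolases anchored in its membrane split disaccharides, short starch chains and peptides into sugars and amino acids that transporters beside them take up. In Caco-2 cells these enzymes are known to rise when the culture becomes confluent and differentiates, a stage that the cultures studied here had not reached. Gliadin peptides are rich in proline and glutamine, and DPP4 is among the few brush border peptidases that cut next to proline. CDX2 and GATA factors are known to switch on SI, LCT and other genes of this group.

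Values are log2 median foreground intensities after normalization with the quantiles method. They compare arrays for 1 probe and say nothing on which of several probes has more mRNA. A spot is well above background where the scanner's image analysis marked it so. By that mark, 8 of the 11 probes, of 7 of the 9 genes, were well above background on all 16 arrays (SI, LCT, MGAM, ALPI, ANPEP, DPP4 and both VIL1 probes). ENPEP was so on 10 arrays, and each of the MME probes on 1. No spot of a member was saturated or marked as an outlier. Array medians of the intensity lay between 153 and 410, against a local background of 48 to 65, and 27660 to 33947 spots per array were well above background. Of the epithelial markers (KRT8, KRT18, KRT19, KRT20, CDH1, EPCAM and CLDN4), 7 of 7 were well above background on all arrays. So were 3 of 4 goblet, 1 of 3 Paneth, 2 of 3 endocrine, 3 of 4 fibroblast, 2 of 4 leukocyte and 2 of 3 endothelial markers. PTPRC of leukocytes, CDH5 of endothelium, DEFA5 of Paneth cells and CLCA1 of goblet cells were so on none. The mark does not separate cell types here.

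None of the member probes differed between the conditions at the nominal p of 0.01 that the study's methods use. The count was 0 of 11 for PT-G against MED-CTL, where 3.43% of all probes passed. It was 0 of 11 for PT against MED-CTL (3.64% of all probes), for p31-43 against MED-CTL (0.403%) and for PT-G against PT (0.0903%), by limma's moderated test in 1 model of the 4 conditions. At a nominal p of 0.05 the count stayed at 0 in each, where 7.94%, 8.95%, 2.15% and 0.761% of all probes passed in the same order. No probe had groups that did not overlap in any comparison, against 3.86%, 5.04%, 1.37% and 0.661% of all probes. The largest log2 difference of a member was 0.25 for PT-G, 0.22 for PT and 0.26 for p31-43 against MED-CTL, and 0.25 between PT-G and PT. The median log2 difference over the 11 probes was -0.00 for PT-G, -0.04 for PT and 0.01 for p31-43 against MED-CTL, beside -0.01, -0.01 and -0.00 over all probes. In arrays of whole cultures, fewer cells that express a gene and less mRNA per cell cannot be told apart.

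**Figure D1:**
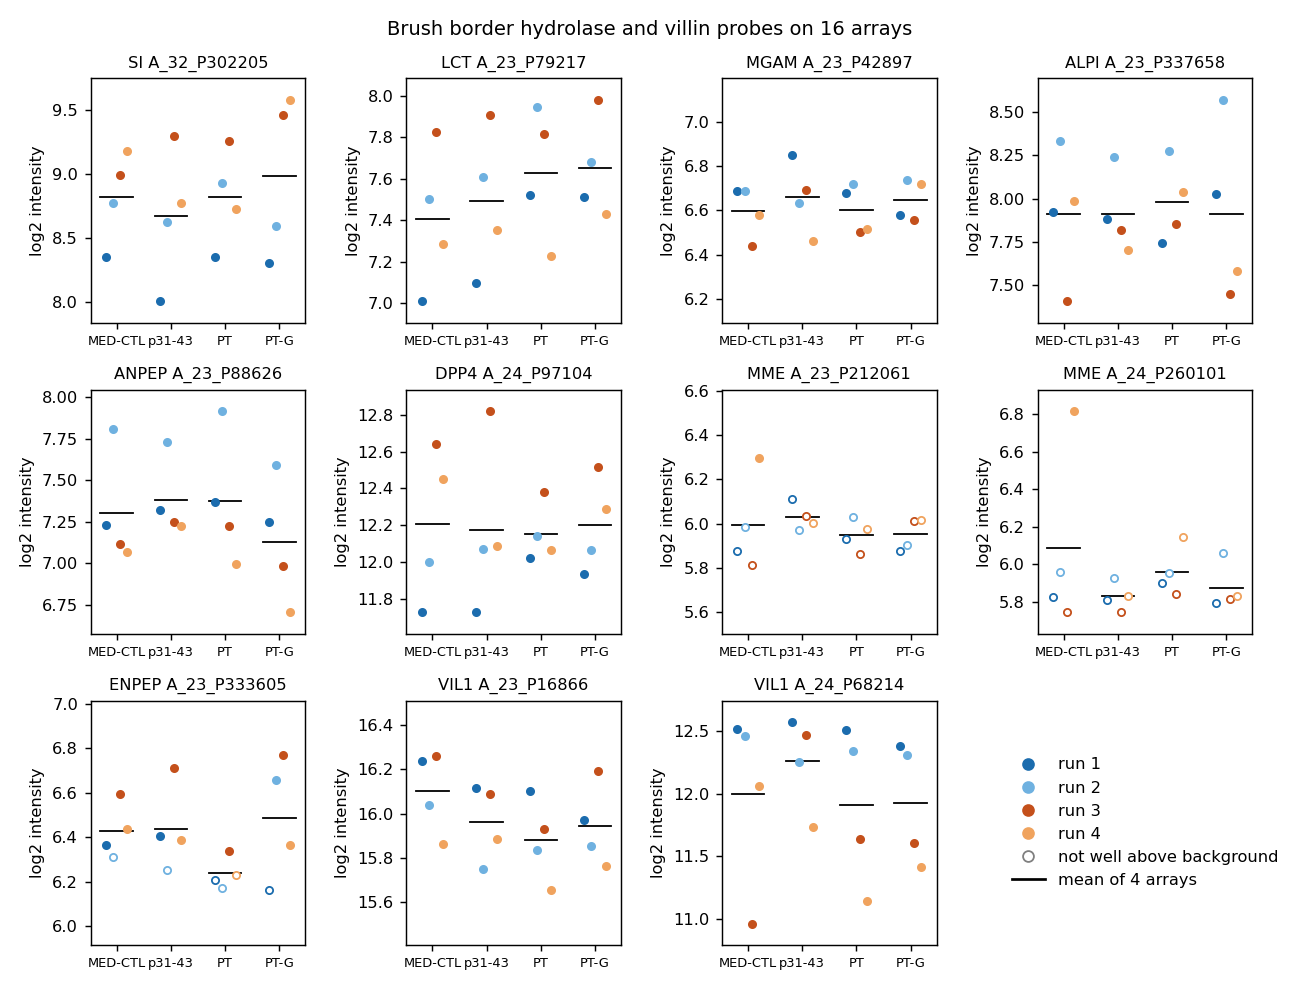
Log2 intensity of the 11 member probes on each of 16 arrays (vertical axes, each panel with its own range) by condition (horizontal axes). Points are single arrays coloured by run, open where the spot was not well above background, and bars are means of 4 arrays. In the SI panel the run 1 arrays lie lowest in every condition (8.00 to 8.35) and the condition means differ by no more than 0.31.

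The disaccharidases come first. SI (sucrase-isomaltase), which splits sucrose and the branch points of starch, gave 8.35, 8.00, 8.35 and 8.30 in run 1 for MED-CTL, p31-43, PT and PT-G. In the same order of conditions it gave 8.77, 8.63, 8.93 and 8.60 in run 2, 8.99, 9.30, 9.26 and 9.47 in run 3, and 9.18, 8.77, 8.73 and 9.58 in run 4. Every condition had its lowest SI value in run 1, and all 4 conditions overlapped. PT-G minus MED-CTL was 0.16 (SE 0.32, 95% interval -0.53 to 0.86, adjusted p = 1 by limma), and its sign changed between runs, being negative in runs 1 and 2 and positive in runs 3 and 4. PT minus MED-CTL was -0.00 (95% interval -0.70 to 0.69) and p31-43 minus MED-CTL was -0.15 (95% interval -0.84 to 0.55).

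LCT (lactase), the enzyme that splits milk sugar, gave 7.01, 7.10, 7.52 and 7.51 in run 1, 7.50, 7.61, 7.95 and 7.68 in run 2, 7.82, 7.91, 7.82 and 7.98 in run 3, and 7.29, 7.35, 7.23 and 7.43 in run 4, again for MED-CTL, p31-43, PT and PT-G. Within every run the PT-G array lay above the MED-CTL array, by 0.50, 0.18, 0.16 and 0.15, and so did the p31-43 array, by 0.07 to 0.10. The mean differences were 0.25 for PT-G (95% interval -0.21 to 0.70, adjusted p = 0.994) and 0.09 for p31-43 (95% interval -0.37 to 0.54, adjusted p = 1), by limma. With the run as a block, which compares arrays within runs, PT-G minus MED-CTL for LCT had an interval of 0.02 to 0.47 and an adjusted p of 0.235. Under PT the LCT difference from MED-CTL was 0.51 and 0.44 in runs 1 and 2, but -0.01 and -0.06 in runs 3 and 4.

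MGAM (maltase-glucoamylase), the close relative of SI that releases glucose from the ends of starch chains, had the narrowest range of the probes that were well above background on all arrays, from 6.44 to 6.85. Its condition means lay between 6.60 and 6.66 with SDs of 0.09 to 0.16 (n = 4 each). No difference from MED-CTL exceeded 0.06, and the 95% intervals of the 3 differences stayed within -0.19 and 0.26. These levels overlap those of ENPEP (6.16 to 6.77), which lay near background, and the values have no background correction. Whether the low signal narrowed the range was not tested. With the background-subtracted signal, scaled to the 75th percentile, PT-G minus MED-CTL was -0.13 in place of 0.05.

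The starts of SI and MGAM are shown because the probes of these close relatives spread unequally over the 16 arrays. SI ranged from 8.00 to 9.58 and MGAM, closer to background, from 6.44 to 6.85. RefSeq start sites (GRCh38.p14) were found for 7 of the 9 genes in 11 windows, and not for LCT and VIL1. In the 250 bases before the start, SI and MGAM share a stretch of 14 bases, ATTACTAATTAACT, which begins 173 bases before the SI start and 144 before the MGAM start and was picked out as their longest common run. Searched on both strands of all 35116 windows of that length, it was in 2, those of SI and MGAM. The windows follow 5′ to 3′ on the strand of each gene, with the shared stretch in capitals. They are chr3:165078497-165078746 on the minus strand for SI and chr7:141995629-141995878 on the plus strand for MGAM.
SI: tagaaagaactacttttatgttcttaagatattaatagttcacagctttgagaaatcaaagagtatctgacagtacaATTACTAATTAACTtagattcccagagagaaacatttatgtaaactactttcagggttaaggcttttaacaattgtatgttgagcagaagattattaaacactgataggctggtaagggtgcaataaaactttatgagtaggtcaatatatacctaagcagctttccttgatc
MGAM: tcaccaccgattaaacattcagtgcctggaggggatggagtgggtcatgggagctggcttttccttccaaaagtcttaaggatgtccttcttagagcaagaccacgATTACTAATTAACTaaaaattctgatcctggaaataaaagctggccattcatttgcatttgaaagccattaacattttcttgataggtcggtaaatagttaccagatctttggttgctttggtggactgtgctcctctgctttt
A match describes letters in a window and not a bound site. GGGCGG, the Sp1 box known from promoters without tissue restriction, searched on both strands, was in 42.6% of all windows and in 6 of the 11 member windows. These belong to ALPI, ANPEP, DPP4 and MME, while the windows of SI, MGAM and ENPEP hold none. The windows also differed in base composition, with 31.6% G and C in the SI window, 41.6% in that of MGAM and 73.6% in that of DPP4.

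ALPI, the intestinal alkaline phosphatase, removes phosphate from nutrients and from bacterial endotoxin. It gave 7.92, 7.88, 7.74 and 8.03 in run 1, 8.33, 8.24, 8.27 and 8.57 in run 2, 7.41, 7.82, 7.86 and 7.45 in run 3, and 7.99, 7.71, 8.04 and 7.59 in run 4, for MED-CTL, p31-43, PT and PT-G. The 4 arrays of run 2 lay above the 12 others. The condition means were close to each other, at 7.91 (MED-CTL), 7.91 (p31-43), 7.98 (PT) and 7.91 (PT-G), with SDs of 0.38, 0.23, 0.23 and 0.50 (n = 4 each). The 95% interval of PT-G minus MED-CTL was -0.51 to 0.51.

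Of the peptidases, ANPEP (aminopeptidase N), which removes amino acids from the N-terminus of peptides, gave 7.23, 7.32, 7.37 and 7.25 in run 1, 7.81, 7.73, 7.92 and 7.59 in run 2, 7.12, 7.25, 7.23 and 6.98 in run 3, and 7.07, 7.23, 7.00 and 6.71 in run 4. As for ALPI, all 4 arrays of run 2 lay above all the others. ANPEP was lower under PT-G than under PT in every run, by 0.13, 0.33, 0.24 and 0.29, while the groups overlapped. The mean difference was -0.25 (95% interval -0.74 to 0.24, adjusted p = 1 by limma) without the run and had an interval of -0.41 to -0.08 with the run as a block (adjusted p = 0.900). With the block, 0.322% of all probes passed the nominal p of 0.01 in that comparison and ANPEP was the only member that did. Against MED-CTL, ANPEP differed by -0.17 under PT-G (95% interval -0.66 to 0.32) and by 0.07 under both PT and p31-43.

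DPP4 (dipeptidyl peptidase 4), which releases dipeptides that end in proline or alanine, gave 11.73, 11.72, 12.02 and 11.93 in run 1, 12.00, 12.07, 12.14 and 12.07 in run 2, 12.64, 12.82, 12.38 and 12.51 in run 3, and 12.45, 12.08, 12.06 and 12.29 in run 4. Its condition means differed by no more than 0.05 (12.15 under PT to 12.21 in MED-CTL), the smallest range of the 11 probes, with SDs of 0.16 to 0.46. Under both digests the difference from MED-CTL was positive in runs 1 and 2 (0.07 to 0.29) and negative in runs 3 and 4 (-0.39 to -0.13). The interval for PT-G minus MED-CTL was -0.50 to 0.49 without the block and -0.26 to 0.25 with it.

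ENPEP (aminopeptidase A), which removes N-terminal acidic residues, lay near background, between 6.16 and 6.77. It was well above background on 3 of 4 arrays of MED-CTL, p31-43 and PT-G and on 1 of 4 of PT. It was the single member for which neighbouring condition means (PT below MED-CTL, 6.24 and 6.43) differed by more than the larger SD, out of 33 neighbouring pairs over the 11 probes. The PT array was the lower in each run, by 0.14 to 0.26, but the test did not call it (-0.19, 95% interval -0.46 to 0.08, adjusted p = 0.761 by limma). MME (neprilysin), an endopeptidase, was well above background only on MED-CTL replicate 4, and there on both of its probes (6.30 for A_23_P212061 and 6.82 for A_24_P260101). The other 15 arrays lay between 5.74 and 6.14 over both probes and give no MME level. The MED-CTL mean of A_24_P260101 rests on that array alone, so no lower bound on a fold between conditions can be drawn from it. In the model, PT-G minus MED-CTL for this probe was -0.21 (95% interval -0.60 to 0.17).

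VIL1 (villin), which bundles the actin core of the microvillus, was measured by 2 probes that did not move together (Pearson's r = 0.18 over the 16 arrays, 0.07 with the run means removed). The brighter probe, A_23_P16866, gave 16.24, 16.12, 16.10 and 15.97 in run 1, 16.04, 15.75, 15.83 and 15.85 in run 2, 16.26, 16.09, 15.93 and 16.19 in run 3, and 15.86, 15.89, 15.66 and 15.76 in run 4. The MED-CTL array was the highest of its run in runs 1, 2 and 3. PT minus MED-CTL was -0.14, -0.21, -0.33 and -0.21 in the 4 runs, with a mean of -0.22 (95% interval -0.49 to 0.05, adjusted p = 0.708 by limma). With the run as a block the interval was -0.37 to -0.07 (adjusted p = 0.0903), and this was the only member probe that passed the nominal p of 0.01 in that comparison, where 10.2% of all probes did. PT-G minus MED-CTL was also negative in all runs (-0.27 to -0.07), with a mean of -0.15 and an interval of -0.31 to -0.00 with the block (adjusted p = 0.275).

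The other VIL1 probe, A_24_P68214, gave 12.51, 12.57, 12.51 and 12.38 in run 1, 12.46, 12.25, 12.34 and 12.31 in run 2, 10.96, 12.46, 11.64 and 11.60 in run 3, and 12.06, 11.74, 11.14 and 11.41 in run 4. The arrays of runs 1 and 2 lay within 0.32 of each other and those of runs 3 and 4 spread over 1.50. Its differences from MED-CTL were -0.07 for PT-G, -0.09 for PT and 0.26 for p31-43, with intervals as wide as -0.55 to 1.07 for p31-43. The p31-43 value rests on MED-CTL replicate 3, without which it was -0.09. The PT-G and PT differences are taken against the same array, at 10.96 beside 12.06 to 12.51 on the other MED-CTL arrays. They are therefore also shifted upwards by it. PT and PT-G minus MED-CTL were positive in run 3 (0.68 and 0.64), the run of that array. They were negative in runs 1, 2 and 4, by the most in run 4 (-0.92 and -0.65).

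**Figure D2:**
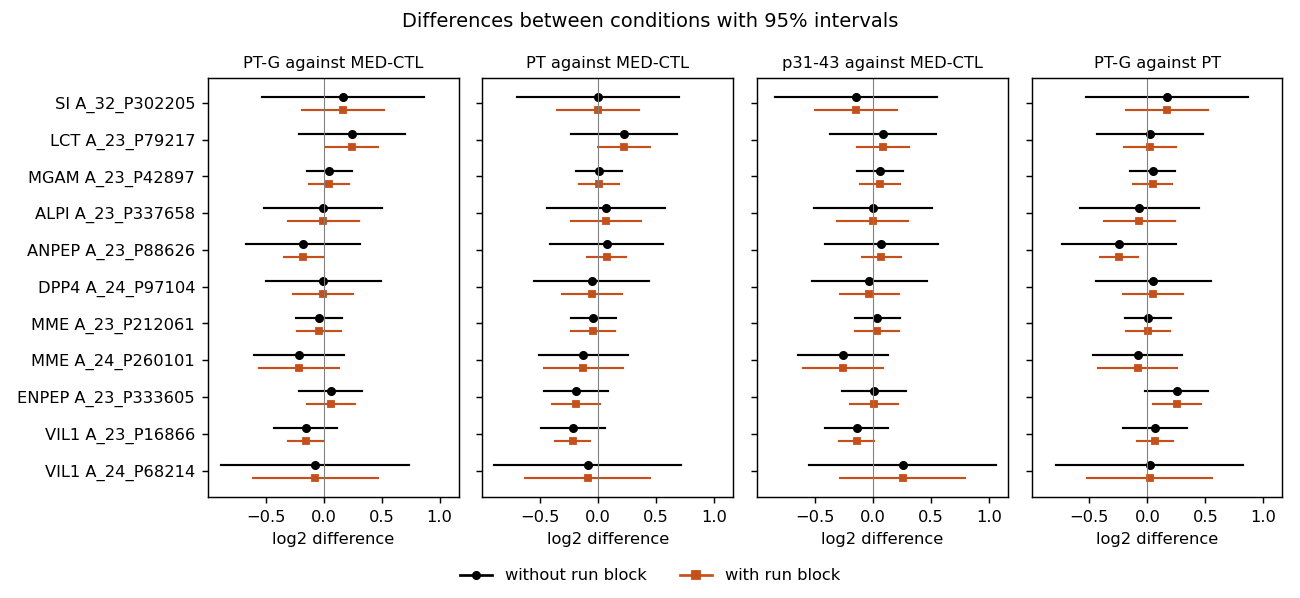
Log2 difference between conditions for the 11 member probes (horizontal axes) with 95% intervals, without the run in the model (black circles) and with the run as a block (orange squares). Without the block every interval includes 0, and with it those of ANPEP between PT-G and PT (-0.41 to -0.08) and of VIL1 A_23_P16866 between PT and MED-CTL (-0.37 to -0.07) lie farthest from 0 relative to their width.

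Counted within runs, the 4 differences had the same sign for 2 of 11 probes under PT-G (LCT higher, VIL1 A_23_P16866 lower), where 28.7% of all probes did. For PT they did so for 2 of 11 (ENPEP and VIL1 A_23_P16866, both lower) against 24.6%, for p31-43 for 1 of 11 (LCT higher) against 16.9%, and between PT-G and PT for 1 of 11 (ANPEP lower) against 8.99%. The members' counts lay at or below the background in 3 of these comparisons and near it between PT-G and PT. The 3 comparisons with MED-CTL share its 4 arrays. With the run as a block, 0 of 11 member probes passed the nominal p of 0.01 for PT-G against MED-CTL (9.11% of all probes), 1 for PT (10.2%), 0 for p31-43 (1.38%) and 1 between PT-G and PT (0.322%). At a nominal p of 0.05 with the block the counts were 3 (LCT, ANPEP and VIL1 A_23_P16866) against 17.6%, 1 against 21.0%, 0 against 6.02%, and 2 (ANPEP and ENPEP) against 3.52%. With the replicate number as a block the count at 0.01 was 0 in all 4, against 7.58%, 8.45%, 1.05% and 0.224%. No member passed an adjusted p of 0.05 with the run as a block, where 5.73% of all probes did under PT-G and 6.50% under PT. Without the block those shares were 0.930% and 0.830%.

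The runs separated the members more than the conditions did. For each probe the sum of squares over the 16 arrays was divided into the part between conditions, the part between runs and the rest. The median share between runs was 65.4% over the 11 member probes, and 72.8% over the 8 that were well above background on all arrays. Over all probes with a value on every array it was 45.0%, and 55.3% over those well above background on all arrays. Between conditions the member median was 8.93%, against 14.8% over all probes. ANPEP had the highest share between runs (83.5%), followed by DPP4 (80.3%), SI (75.6%), LCT (73.0%) and ALPI (72.7%), with less than 1% between conditions for ALPI (0.902%) and DPP4 (0.522%). VIL1 followed with 65.4% and 60.7%, and ENPEP (43.1%), MGAM (40.4%) and MME (33.0% and 24.5%) lay at or below the median of all probes.

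**Figure D3:**
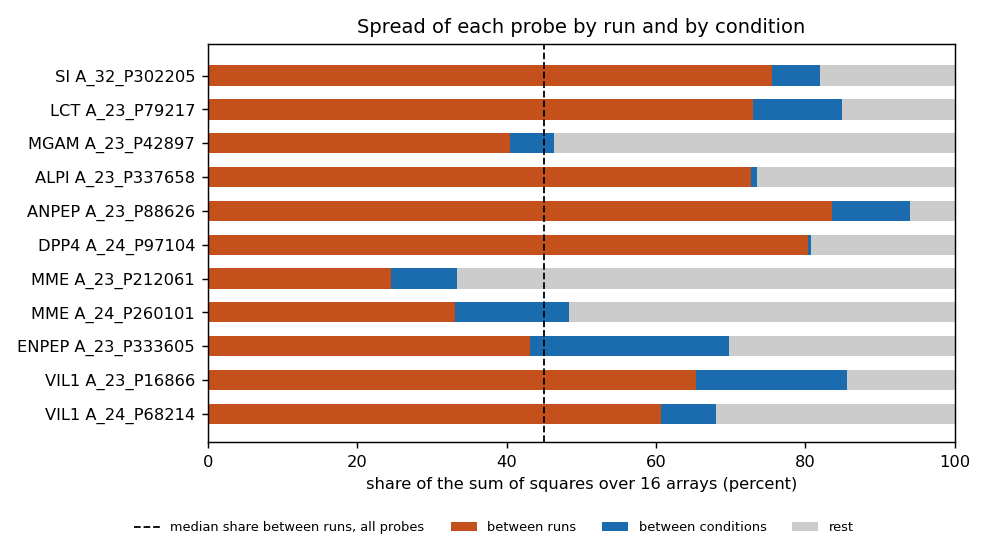
Share of the sum of squares over 16 arrays that lies between runs, between conditions and in the rest (horizontal axis, percent), for each member probe. The dashed line is the median share between runs over all probes (45.0%), which 7 of the 11 bars between runs exceed.

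A difference among the 4 runs, tested with limma's moderated F test with the condition as covariate and chosen after the values had been seen, was called in 7 of 11 member probes at an adjusted p of 0.05. The same 7 passed a nominal p of 0.01. Of all probes 47.0% were called (39.1% at the nominal threshold), and all 7 were among the 8 member probes well above background on all arrays, where 67.6% of all such probes were called. The 7 were ANPEP (adjusted p = 0.000127), LCT (0.00186), SI (0.00212), DPP4 (0.00253), VIL1 A_23_P16866 (0.00462), ALPI (0.00756) and VIL1 A_24_P68214 (0.0175). ENPEP had an adjusted p of 0.0561 and MGAM of 0.230. The range of the run means was 1.00 on the log2 scale for SI (2.01-fold), 0.90 for VIL1 A_24_P68214 (1.87-fold), 0.76 for ANPEP, 0.74 for DPP4, 0.72 for ALPI and 0.60 for LCT. The range of the condition means of the same probes was 0.31, 0.35, 0.25, 0.05, 0.07 and 0.25.

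The members did not follow a common order of runs. SI rose from 8.25 ± 0.17 (SD, n = 4) in run 1 to 8.73 ± 0.15 in run 2 and stood at 9.25 ± 0.20 and 9.07 ± 0.40 in runs 3 and 4. DPP4 had the same order, with 11.85 ± 0.15, 12.07 ± 0.06, 12.59 ± 0.19 and 12.22 ± 0.18 in runs 1 to 4. LCT was highest in run 3 (7.88 ± 0.08) and lowest in runs 1 and 4 (7.29 ± 0.27 and 7.32 ± 0.09). ANPEP and ALPI both peaked in run 2, at 7.76 ± 0.14 and 8.35 ± 0.15, with 7.00 ± 0.22 (run 4) and 7.63 ± 0.24 (run 3) as the lowest run means. The brighter VIL1 probe was higher in runs 1 and 3 (16.11 ± 0.11 and 16.12 ± 0.14) than in runs 2 and 4 (15.87 ± 0.12 and 15.79 ± 0.10). Between neighbours in the order of the run means, 14 of 33 steps exceeded the larger of the 2 SDs, where 1 of 33 did among the condition means. SI differed by more than that between runs 1 and 2 and not between runs 2 and 4 or 4 and 3.

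**Figure D4:**
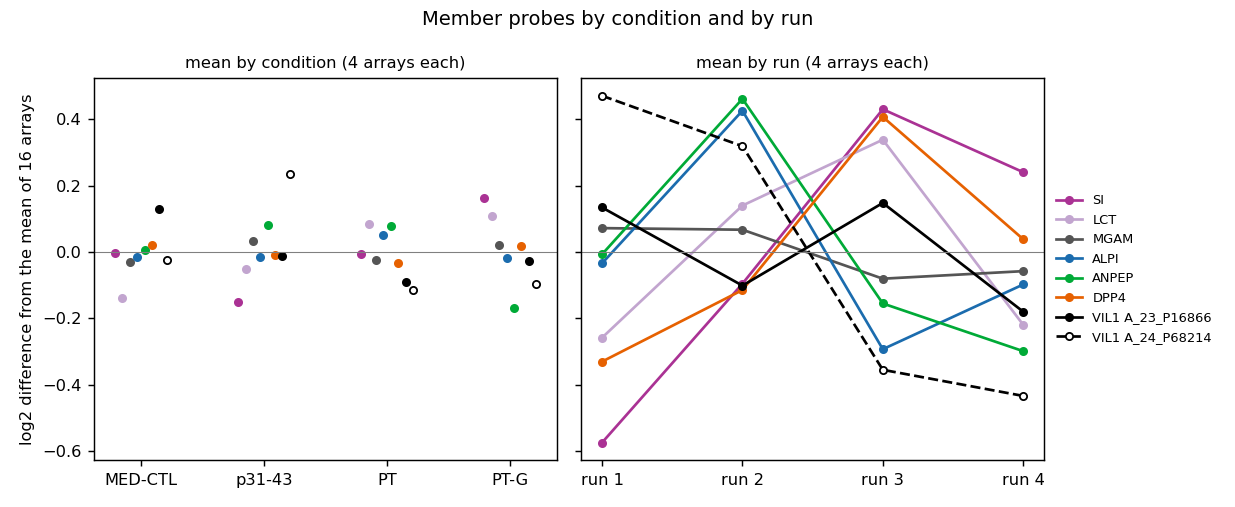
Mean log2 difference from the mean of 16 arrays (vertical axis) for the 8 probes well above background on all arrays, by condition on the left and by run on the right, 4 arrays per mean. By condition all means lie within 0.25 of the overall mean, while by run SI spans 1.00 and the 2 VIL1 probes take different courses.

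Set as pairs of runs, with the run as a random block and the condition as covariate, SI was higher in the later pair by 0.67 (SE 0.20, adjusted p = 0.0480 by limma) and ANPEP lower by 0.45 on the log2 scale (-0.45, SE 0.12, adjusted p = 0.0329). These were 2 of 11 member probes at a nominal p of 0.01, where 13.7% of all probes passed (11.2% at an adjusted p of 0.05). DPP4 (0.45, adjusted p = 0.0786) and VIL1 A_24_P68214 (-0.79, adjusted p = 0.0784) did not pass. The SI call was lost without PT-G replicate 1 (0.63, adjusted p = 0.0872) or PT replicate 3 (0.66, adjusted p = 0.136). It was also lost with the filter on dim probes (adjusted p = 0.0843), and the ANPEP call with the background-subtracted signal (-0.59, adjusted p = 0.112 by limma). The block applies 1 correlation (0.300) to all probes, while 75.6% of the SI spread and 83.5% of the ANPEP spread lay between runs. The p-values may therefore be too small for both. Each pair has only 2 runs, and passage, slide and day of the experiment cannot be told apart in it. Runs 1 and 2 each lay on a slide of their own, and runs 3 and 4 likewise except for PT replicate 3 and p31-43 replicate 4, which shared another slide.

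Values that differ between runs stand beside these results. Spots well above background numbered 29853 to 31079 in run 1, 29573 to 31083 in run 2, 30771 to 31444 in run 3 and 27660 to 33947 in run 4. The log2 levels of 7 epithelial markers summed to 106.10 to 107.42 in run 1, 106.30 to 107.71 in run 2, 106.84 to 107.80 in run 3 and 106.07 to 106.79 in run 4. The 4 goblet markers summed to 35.1 to 36.2, 36.8 to 37.2, 34.9 to 39.0 and 37.7 to 38.1 in the 4 runs, with CLCA1 well above background on no array. The 2 arrays of run 4 on which the MUC2 spot was marked as an outlier, of MED-CTL and p31-43, were left out of this sum. The 4 fibroblast markers summed to 32.1 to 32.7, 32.2 to 32.9, 33.8 to 34.7 and 32.9 to 33.6, and the 3 Paneth markers to 21.5 to 21.7, 21.7 to 22.1, 22.2 to 23.5 and 21.8 to 22.0, with DEFA5 at background. The part of these values in the run differences of the members was not tested.

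Over the 16 arrays the closest pair of members was SI and DPP4 (Pearson's r = 0.82), then ALPI and ANPEP (0.74), MGAM and VIL1 A_24_P68214 (0.71), and LCT and DPP4 (0.69). With the run means removed these became 0.40, 0.19, 0.47 and 0.52. The arrays of a run are taken to share their culture experiment, so the 16 points are not treated as independent and no p is given. Among 23093 probes of 16876 genes well above background on all arrays, the pattern most like SI was that of ST6GAL1 (r = 0.95, 0.81 without run means) and SLC22A3 (0.94, 0.77), and that most like DPP4 was of PROS1 (0.93, 0.63) and LMBRD1 (0.93, 0.62). For ANPEP they were OAF (0.95) and DEF6 (0.94), for LCT ZNF57 (0.89) and DKK3 (0.88), and for ALPI D21S2056E (0.94) and GFRA3 (0.93). For the brighter VIL1 probe they were TSN and PEX19, which kept r = 0.90 and 0.94 without the run means, and for MGAM LLGL1 (0.79) after a probe with no gene symbol (0.81).

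The genes around the members were taken as 5 lists, each gene by its probe well above background on most arrays. Of 16 other brush border hydrolases, 1 was lower under PT-G at a nominal p of 0.01 and none under PT or p31-43, by limma, where 3.43%, 3.64% and 0.403% of all probes passed. It was ASAH2, a neutral ceramidase of the brush border, at 7.92 ± 0.04 under PT-G against 8.20 ± 0.07 in MED-CTL (SD, n = 4), a log2 difference of -0.28 (adjusted p = 0.251), which did not pass the nominal threshold with the run as a block. Under PT, ASAH2 stood at 7.93 with an SD of 0.21, a log2 difference from MED-CTL of -0.27, and these groups overlapped. PT-G minus PT was -0.02 for ASAH2. The call under PT-G alone therefore does not set the gliadin digest apart from the blank digest. Of the list's genes of highest mean, MEP1A, a subunit of the endopeptidase meprin, differed by -0.11, -0.04 and -0.04 under PT-G, PT and p31-43. The list's median difference was 0.02, -0.03 and -0.01, beside -0.01, -0.01 and -0.00 for all probes.

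Of 16 genes of microvillus structure none was called in the comparisons with MED-CTL. EZR (ezrin), which ties the actin core to the membrane, differed by 0.18, 0.06 and 0.08 under PT-G, PT and p31-43, and its partner SLC9A3R1 by 0.14, 0.06 and -0.00. With the run as a block PLS1 (plastin 1), an actin bundler like villin, was higher under both digests, by 0.64 under PT-G (adjusted p = 0.00153) and 0.51 under PT (adjusted p = 0.0055), and PDZK1 was lower under PT by 0.32 on the log2 scale (-0.32, adjusted p = 0.0709). Of all probes, 9.11% under PT-G and 10.2% under PT passed the nominal threshold with the block.

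Of 12 genes for the uptake of sugars, peptides and amino acids none was called without the block either. With it SLC3A1, the heavy subunit of the transporter for cystine and dibasic amino acids, was higher by 0.91 under PT-G and 0.88 under PT (adjusted p = 0.00221 and 0.00282). SLC2A5, the fructose transporter, was lower, with differences of -0.50 and -0.43 (adjusted p = 0.0295 and 0.0540, limma with the run as a block). SLC3A2, SLC7A7 and SLC7A5, the list's genes of highest mean, differed from MED-CTL by -0.16 to 0.20 in the 3 comparisons.

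Of 12 transcription factors of enterocyte differentiation, 1 was higher under PT-G and the same 1 under PT at a nominal p of 0.01. Of all probes, 3.43% and 3.64% passed in either direction. This is not the full tally of the list, since factors called lower are not reported here. Under p31-43 none was called. The higher factor was KLF5, a factor of the proliferating crypt epithelium, with 13.39, 13.40, 13.45 and 13.01 on the MED-CTL arrays of runs 1 to 4, 14.31, 14.00, 14.21 and 14.06 under PT-G, and 14.41, 14.01, 13.81 and 13.95 under PT. Neither digest overlapped MED-CTL. KLF5 rose by 0.83 under PT-G (SE 0.14, adjusted p = 0.0126) and by 0.73 under PT (adjusted p = 0.0290), by limma, and its other probe gave 0.81 and 1.06 (adjusted p = 0.611 and 0.315). GATA6, the list's brightest gene, differed by 0.26, 0.09 and -0.13 under PT-G, PT and p31-43.

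CDX2, known to bind the SI promoter, gave 10.99, 11.26, 10.33 and 9.79 on the MED-CTL arrays of runs 1 to 4, 10.43, 10.37, 10.06 and 8.61 under PT-G, and 10.71, 10.48, 9.41 and 9.19 under PT. The groups overlapped, but within each run both digests lay below MED-CTL. The differences were -0.72 for PT-G (adjusted p = 0.903, and 0.0349 with the run as a block) and -0.65 for PT (adjusted p = 0.800, and 0.0521 with the block). ELF3, an epithelial factor of the ETS family, gave 11.89, 12.25, 11.19 and 11.29 in MED-CTL, 12.95, 13.10, 12.11 and 11.47 under PT-G, and 13.23, 12.89, 11.94 and 11.88 under PT, and both digests lay above MED-CTL within each run. The differences were 0.75 for PT-G (adjusted p = 0.769, and 0.0138 with the block) and 0.83 for PT (adjusted p = 0.610, and 0.00811 with the block). SI, which CDX2 is known to activate, differed from MED-CTL by 0.16 under PT-G and -0.00 under PT, and with the run as a block the 95% interval was -0.19 to 0.52 under PT-G and -0.36 to 0.35 under PT.

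**Figure D5:**
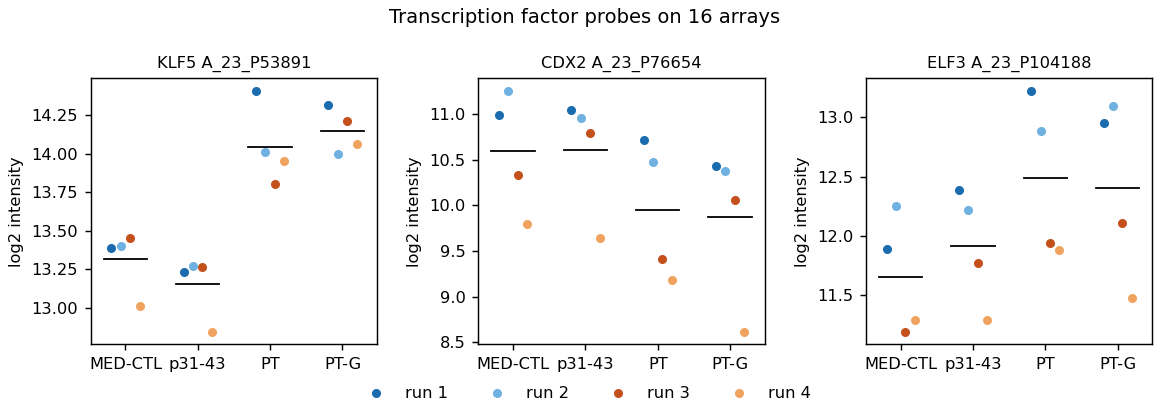
Log2 intensity of the lead probes of KLF5, CDX2 and ELF3 on each array (vertical axes) by condition, coloured by run, with bars at the means of 4 arrays. The KLF5 arrays of PT (13.81 to 14.41) and PT-G (14.00 to 14.31) lie above those of MED-CTL (13.01 to 13.45), while those of CDX2 and ELF3 overlap between conditions.

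KRT20, a keratin of differentiated surface cells among the epithelial markers, was higher under PT-G by 0.63 (adjusted p = 0.0250, limma) and under PT by 0.49 (adjusted p = 0.0930). It was the 1 of 7 epithelial markers called at a nominal p of 0.01 under each digest, where 3.43% and 3.64% of all probes passed. Under PT-G, KRT8, KRT18 and CDH1 differed by -0.10, -0.07 and -0.06, and KRT19, EPCAM and CLDN4 by 0.08, 0.03 and 0.40. The median of the 7 was 0.03 under PT-G and -0.10 under PT.

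Of the 3 alkaline phosphatases of other tissues, ALPPL2, the germ cell form, was lower under p31-43 at 11.09 ± 0.05 against 11.55 ± 0.27 in MED-CTL (SD, n = 4), a difference of -0.46 with groups that did not overlap that passed the nominal threshold (adjusted p = 1). Its other probe differed by 0.03 (adjusted p = 1). ALPP, the placental form, and ALPL, the form of bone, liver and kidney, were not called in any comparison with MED-CTL. The mRNAs of ALPI, ALPP and ALPPL2 are much alike, and no probe sequences were available. Signal from any of these genes cannot be told apart from that of the others here.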

How the data were processed

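Total RNA of 16 Caco-2 cultures was hybridised to 1-colour Agilent 4x44K human arrays. The authors deposited the scanner's spot intensity values on a linear scale, given by Agilent Feature Extraction 9.5.3.1 per the file headers, and a log2 table of the same arrays. Within 5e-09, the deposited log2 values are the quantile-normalized median foreground of all spots, controls included, with no background correction. The same normalization was made here from the scanner intensities. Of 45015 spots per array, 1639 controls and 0.256% marked as outliers were then left out, spots of a probe were averaged, and 40982 of 41000 probes with at least 3 unmarked arrays in each group were kept.

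limma 3.58.1 (R 4.3.3, statmod 1.5.0) was fitted to all probes and all 16 arrays at once, with 2-sided moderated tests. p-values of a comparison were adjusted over all probes after Benjamini and Hochberg. The nominal p threshold of 0.01 is that of the study's methods, and an adjusted p of 0.05 was read beside it. Pairs of runs were compared with duplicateCorrelation (consensus correlation 0.300). The F test of runs was added after the values had been seen. Without a block, p-values of the comparisons between conditions are set against the spread between these 4 experiments with 1 cell line. With the run as a block they are set against the spread left after the run means are removed. The F test of runs uses that remaining spread too, and not the spread between experiments. Scripts for the tests were checked on simulated data.

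Members and gene lists were chosen with earlier results of these data known. All member probes are named, and of the lists the genes at a nominal p under 0.01 and the 3 of highest mean, of which some examples are given. Genes named for a call with the run as a block, second probes and KRT20 were added after their values were seen. Likeness is Pearson's r to the lead probe, with the 2 highest genes given.

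Pairing by replicate number was checked by the correlation, across probes, of deviations from the group means. It lay between 0.396 and 0.857 for PT-G with MED-CTL and between 0.262 and 0.706 for p31-43 with MED-CTL, so the numbers pair these arrays. They do not for PT with MED-CTL (-0.00256 to 0.412) or PT-G with PT (0.0522 to 0.696). By run the ranges were 0.629 to 0.857 (PT-G), 0.538 to 0.706 (p31-43) and -0.00256 to 0.621 (PT) against MED-CTL. For PT-G with PT the range by run was the same as by replicate number, 0.0522 to 0.696. At these lowest values neither the replicate number nor the run pairs the PT arrays, which limits the results for PT with the run as a block. Alternatives concerned background correction, normalization, dim probes, marked spots, array weights, blocks for replicate number, run or slide, the groups in the fit and each array left out. The study's own probe filter and annotation were not used here. Some listed transcription factors are not reported here.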

Additional observations from a re-analysis of the deposited data

Results flagged for a closer look

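In the 44 groups of 4 arrays of the 11 member probes, 1 array stood apart from the other 3 by Dixon's 95% critical value. It was the MME probe A_24_P260101 on PT-G replicate 2, at 6.06 beside 5.79 to 5.83 on the other PT-G arrays, and it was not well above background there. Chance alone flags about 1 in 20 groups.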

How the results depend on the processing

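The counts of 0 of 11 member probes at a nominal p under 0.01 stayed at 0 for PT-G against MED-CTL under every alternative run. The count became 1 for PT against MED-CTL with the run block (VIL1 A_23_P16866, -0.22) and 1 with the slide block (LCT, 0.32), 1 for p31-43 against MED-CTL with the slide block (VIL1 A_23_P16866, -0.19), and 1 for PT-G against PT with the run block and 1 with the slide block (ANPEP in both). Leaving out each array in turn gave 0 to 1 for PT-G against PT, the 1 being ENPEP without PT-G replicate 1 (0.36), and 0 in the other 3 comparisons. The replicate block gave 0 in every comparison and changed no call of a member. Of 1176 values between conditions recomputed, 126 changed sign, all of them not called, and 6 were called. For the later against the first pair of runs the count of 2 became 1 with the background-subtracted signal, 4 with normexp, 1 with the filter on dim probes and 4 with no block for the run, and lay between 1 and 3 with each array left out. The 7 probes that differed among runs became 6 with the background-subtracted signal and 6 with median scaling, stayed at 7 under the other 4 alternatives, and lay between 7 and 8 with each array left out. The median share between runs of 65.4% was 66.1% with quantiles without controls, 63.9% with the background-subtracted signal, 64.8% with normexp and 59.5% with median scaling. The causes of these shifts were not tested. MME was well above background on 1 array and ENPEP on 10, which limits what can be said of them, and 4 arrays per group limit how precise the other values are.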
